A study of Mus musculus with 17 samples.

Results

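The cytosolic ribosomal protein genes were taken from the count table by their symbols: a symbol counted as a member when it began with Rps or Rpl, went on with a number as these protein names do, and was neither a ribosomal S6 kinase gene (Rps6k) nor a pseudogene with -ps in its symbol. This gave 87 members of 22859 genes in the table, 34 named for the small subunit and 53 for the large subunit. Ribosomal protein genes whose symbols the rule misses, such as Rpsa, Fau and Rack1, were kept apart. The rule itself used symbols and no measured value, but it was set with earlier results of these data known.

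Bulk RNA-seq was done on macrophages sorted from mouse synovium, the membrane that lines joints. Every mouse, controls included, was labelled Fcgr2b-KO, a knockout of the Fc receptor that restrains responses to IgG. Mice were controls (labelled Healthy), or had received immune complexes (ICs), ovalbumin bound by rabbit antibody, into a vein 8 h before collection. In each treatment 3 sorted subsets were sequenced: LYVE1+CX3CR1+ (labelled Lyve1), MHCII+CD11c- (labelled IAIE) and MHCII+CD11c+ (labelled CD11c) macrophages. There were 3 libraries in each of the 6 groups except MHCII+CD11c+ after IC, which had 2, so 17 in all. The study used adult mice of both sexes unless otherwise mentioned, and the labels do not say whether a library pooled animals, so p-values measure the spread between libraries, which may in part be technical.

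A ribosome is built of a small subunit, which reads the messenger RNA, and a large subunit, which joins amino acids. Each subunit holds ribosomal RNA and a fixed set of proteins, and most of these proteins are present once per ribosome. Their genes are transcribed strongly in almost all cells, and cells that grow, divide or secrete make more of their messages. Many of these messages start with a C followed by a run of pyrimidines, called a terminal oligopyrimidine (TOP) tract, through which the kinase mTOR and the protein LARP1 control their translation. In bulk samples, fewer cells of a type and less RNA per cell cannot be told apart.

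Library totals were between 2301913 and 7248939 counts, so a floor of 3 counts was 0.414 to 1.30 CPM (counts scaled to library size). The summed subset markers followed the labels. The summed MHCII list (H2-Ab1, H2-Aa, H2-Eb1 and Cd74) was 20.4 to 157 CPM in LYVE1+CX3CR1+ libraries and at least 10651 CPM in the others. Itgax, which encodes CD11c, was 286 to 422 CPM in MHCII+CD11c+ libraries and at most 16.6 CPM elsewhere. The 5 LYVE1+ markers summed to 3609 to 6824 CPM, 1031 to 3151 CPM and 59.6 to 558 CPM in the subsets, in the order just named. Not every marker in this sum set LYVE1+CX3CR1+ apart from MHCII+CD11c- libraries. Folr2 held 771, 365 and 1044 counts in LYVE1+CX3CR1+ controls and 590, 495 and 386 counts in MHCII+CD11c- controls, before scaling. Vsig4 held 4474 to 8515 and 67 to 1733 counts there. Counts on Fcgr2b itself were present in all 17 libraries, from 69.3 to 248 CPM. A count over a whole gene does not show which exons were read, so it did not check the knockout.

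Ribosomal protein genes took a small share of each library, and the share was higher from subset to subset in the order LYVE1+CX3CR1+, MHCII+CD11c-, MHCII+CD11c+. In controls the 87 genes held 1.59%, 1.50% and 1.35% of counts in the 3 LYVE1+CX3CR1+ libraries. They held 1.92%, 2.28% and 2.05% in MHCII+CD11c- libraries and 3.03%, 2.90% and 3.45% in MHCII+CD11c+ libraries. These 3 control groups did not overlap. After IC the shares were 1.74%, 1.89% and 1.56% in LYVE1+CX3CR1+, 1.90%, 2.08% and 2.25% in MHCII+CD11c- and 2.58% and 2.63% in MHCII+CD11c+ libraries. The subsets again stood in the same order without overlap, although the highest LYVE1+CX3CR1+ library and the lowest MHCII+CD11c- library nearly touched.

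**Figure D1:**
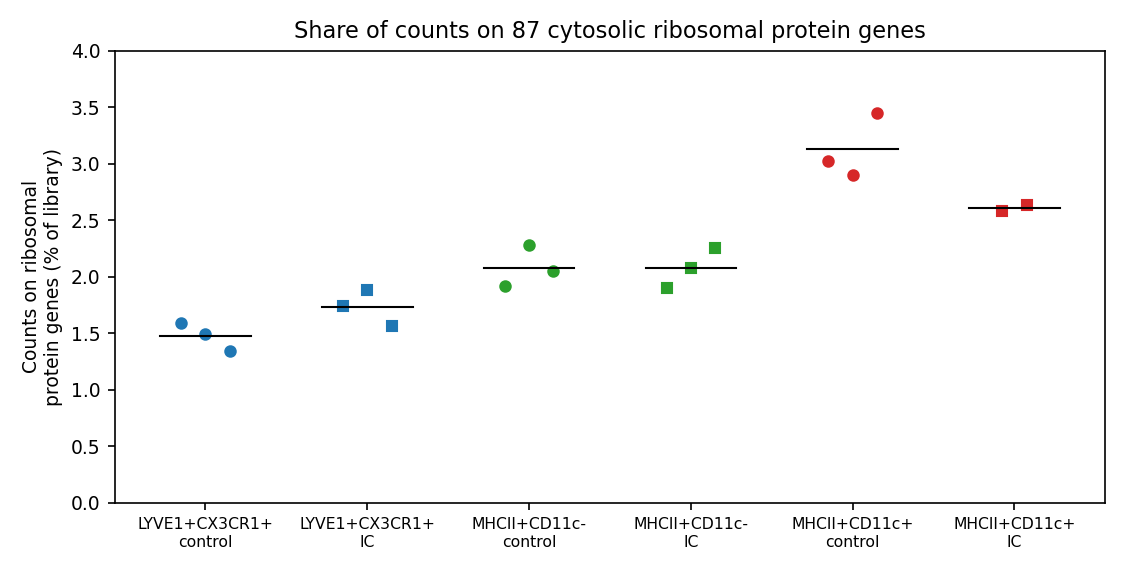
Share of all counts on the 87 ribosomal protein genes (y axis, percent of library) in each of the 17 libraries, with circles for controls, squares for IC and lines for group means. Control means were 1.48%, 2.08% and 3.13% from left to right by subset, and the 2 MHCII+CD11c+ libraries after IC (2.58% and 2.63%) lay below the 3 MHCII+CD11c+ controls.

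The mean shares in controls were 1.48% ± 0.124, 2.08% ± 0.184 and 3.13% ± 0.288 (SD, n = 3 each). With mitochondrially encoded genes left out of the total they were 1.63%, 2.31% and 3.49%, in the same order. Pseudogenes with -ps in their symbols took up 4.12% to 4.91% of the counts on members and pseudogenes together.

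Of the 87 members, 83 passed the filter on low counts and were tested among 15272 genes. The 4 that did not pass, Rpl36al, Rpl32l, Rpl3l and Rpl39l, are copies of other members and lay between 0 and 5.35 CPM. Per kilobase of transcript, the highest mean levels of the series belonged to Rplp1 (1162 CPM per kb), Rpl26 (1003), Rplp2 (978), Rplp0 (977.3) and Rps24 (940.3). Rplp0, Rplp1 and Rplp2 encode the stalk of the large subunit, where translation factors bind. With the union of all exons as the length, Rplp1 stayed first (1162 CPM per kb) and was followed by Rps3a1, Rps23, Rpl36 and Rpl19.

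The lowest of the tested members were Rpl24 (1.67 CPM per kb), Rps3a3 (10.49), Rps3a2 (10.98), Rps4l (11.7) and Rpl13a (16.6). GENCODE M21 calls Rps3a2, Rps3a3 and Rps4l pseudogenes, as it does Rpl6l and Rpl32l. Rpl24 and Rpl13a are ordinary ribosomal protein genes, but other models overlap them. Another model on the same strand, Gm28037, covers 71.5% of the exons of Rpl24, and Gm45713 covers 53.3% of those of Rpl13a. Neither model was a row of the count table. Rpl24 stayed between 0 and 4.56 CPM in all 17 libraries, so no result is drawn from it.

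The sequences at the transcription start were searched for a TOP tract. RefSeq promoters (GRCm38.p6) matched 63 of the 87 members by symbol, with 75 starts. Each window below has 15 bases before the start and 15 from it, 5′ to 3′ on the gene's strand. Capitals mark a run of C and T of at least 5 bases that begins with a C on the first transcribed base. Rps6, Rps18 and Rps27 are shown because the run is there, and Rps16 and Rpl13 because it is not. The part of the run in the changes given below was not tested.
Rps6, chr4:86857353-86857382, minus strand: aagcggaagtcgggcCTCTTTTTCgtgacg
Rps18, chr17:33955651-33955680, minus strand: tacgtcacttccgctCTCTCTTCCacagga
Rps27, chr3:90213634-90213663, minus strand: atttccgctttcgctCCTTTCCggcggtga
Rps16, chr7:28350674-28350703, plus strand: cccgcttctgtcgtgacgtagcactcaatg
Rpl13, chr8:123102335-123102364, plus strand: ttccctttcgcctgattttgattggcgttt

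Such a run began exactly on the annotated start in 14 of 75 member promoters (18.7%), against 823 of 32851 promoters of all genes (2.51%) and 0 of 74 promoters of mitochondrial ribosomal protein genes. It began within 5 bases of the start in 42.7% of member promoters and in 18.3% of all promoters. The run was read only on the transcribed strand. The letters CTTTC within 20 bases of the start, which can lie inside such a run, were found on the transcribed strand in 25.3% of member promoters and 5.49% of all promoters. On the other strand they were found in 5.33% and 4.86%. In Rpl13 a run ttccctttc lies upstream of the annotated start and ends before it, as the window shows. A match or its lack describes these windows only.

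Without IC, LYVE1+CX3CR1+ macrophages had less of nearly all ribosomal protein messages than MHCII+CD11c+ macrophages. Of 83 members tested, 73 were lower and none was higher (edgeR quasi-likelihood test, Benjamini-Hochberg adjusted p under 0.05). Among all genes 7.40% were called lower in this comparison. The median log2 fold change of the members was −1.12, beside 0.05 for all genes, and 1 of the 83 estimates was above 0. Both subunits changed alike, with 30 of 34 small subunit genes lower (median −1.10) and 43 of 49 large subunit genes lower (median −1.13).

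The gene with the smallest p was Rps6, whose product is the substrate that gives S6 kinases their name. Rps6 stood at 247, 248 and 226 CPM in LYVE1+CX3CR1+ controls, at 362, 439 and 388 CPM in MHCII+CD11c- controls and at 686, 656 and 767 CPM in MHCII+CD11c+ controls. The 3 groups did not overlap, and MHCII+CD11c- lay in between. The log2 fold change of Rps6 in LYVE1+CX3CR1+ against MHCII+CD11c+ was −1.55 ± 0.16 (SE; edgeR adjusted p = 1.9e-07).

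The other members with the smallest p were Rps16, Rps18, Rpl13 and Rpl27a, which encode structural proteins of the small (Rps) or large (Rpl) subunit. Rps16 was 122, 105 and 112 CPM in LYVE1+CX3CR1+ controls against 278, 277 and 359 CPM in MHCII+CD11c+ controls (log2 fold change −1.43 ± 0.17, edgeR adjusted p = 2.43e-06). Rps18 was 180.3, 149 and 149 CPM against 394, 436 and 503 CPM (−1.48 ± 0.18). In neither gene did a LYVE1+CX3CR1+ library come near an MHCII+CD11c+ library. Rpl13 was 252, 181 and 234 CPM against 607, 517 and 712 CPM (−1.46 ± 0.18). Rpl27a was 239.9, 204 and 217 CPM against 483, 523 and 566 CPM (−1.25 ± 0.16). The groups of these genes were likewise apart, and the call held in every alternative tried for all 5 genes.

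Every library of LYVE1+CX3CR1+ controls lay below every library of MHCII+CD11c+ controls in 76 of 83 members, and this was so for 16.9% of all genes tested. The 7 members that overlapped were Rpl15, Rpl22l1, Rpl24, Rpl29, Rpl37, Rpl7l1 and Rps4l.

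Members with known roles outside the bulk of the ribosome changed in the same direction. Rplp0, the stalk base, was 452, 635 and 405 CPM in LYVE1+CX3CR1+ controls and 1185, 1002 and 1515 CPM in MHCII+CD11c+ controls (log2 fold change −1.31 ± 0.20, edgeR adjusted p = 3.54e-05). The stalk proteins Rplp1 and Rplp2 differed by −0.56 ± 0.18 (edgeR adjusted p = 0.0311) and −0.98 ± 0.17. Rplp1 was 459, 477 and 322 CPM against 680.2, 515 and 656 CPM, so the highest LYVE1+CX3CR1+ library came close to the lowest MHCII+CD11c+ library. Its call was lost in 7 of 29 alternatives, among them the fits without LYVE1+CX3CR1+ control replicate 3 (adjusted p = 0.155), MHCII+CD11c+ control replicate 1 or MHCII+CD11c+ control replicate 3.

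Rpl5 and Rpl11, which bind the smallest rRNA of the large subunit and, when free, the p53 regulator MDM2, differed by −0.94 ± 0.22 and −1.20 ± 0.18 on the log2 scale (edgeR adjusted p = 0.00311 and 4.16e-05). Rpl11 was 148, 118 and 145 CPM against 291, 310.4 and 346 CPM, without overlap. Fam69a lies opposite 42.5% of the exons of Rpl5. Rps27a, made as a fusion with ubiquitin, was 148, 136 and 134 CPM against 309, 391 and 323 CPM (−1.29 ± 0.20, edgeR adjusted p = 6.2e-05). It was more than doubled in MHCII+CD11c+ controls in every library.

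Rps19 and Rps14, whose loss in blood precursors causes anaemia in people, differed by −1.22 ± 0.18 and −1.05 ± 0.22 on the log2 scale (edgeR adjusted p = 2.62e-05 and 0.00118). Rps19 was 148, 161 and 122 CPM in LYVE1+CX3CR1+ controls and 308, 329 and 365 CPM in MHCII+CD11c+ controls. Rps3, a protein at the entry of the messenger RNA channel, differed by −1.10 ± 0.17 and Rpl38, known for its part in patterning of the mouse skeleton, by −1.30 ± 0.25 (edgeR adjusted p = 6.94e-05 and 0.000532). Rpl13a, at 7.3 to 8.79 CPM against 11.5 to 14.7 CPM, was lower in every library, but its difference of −0.68 ± 0.60 did not pass the test (edgeR adjusted p = 0.541).

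Besides Rpl13a, 9 members did not pass: Rpl15, Rpl22l1, Rpl24, Rpl37, Rpl7l1, Rps20, Rps3a2, Rps3a3 and Rps4l. Rpl15 differed by −0.64 (edgeR adjusted p = 0.0868). Rps4l, a pseudogene model and the member farthest from the median, was 15, 13 and 11.2 CPM in LYVE1+CX3CR1+ controls and 11.7, 11.5 and 2.65 CPM in MHCII+CD11c+ controls, with a log2 fold change of 0.57 ± 0.63. It was the 1 estimate above 0.

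**Figure D2:**
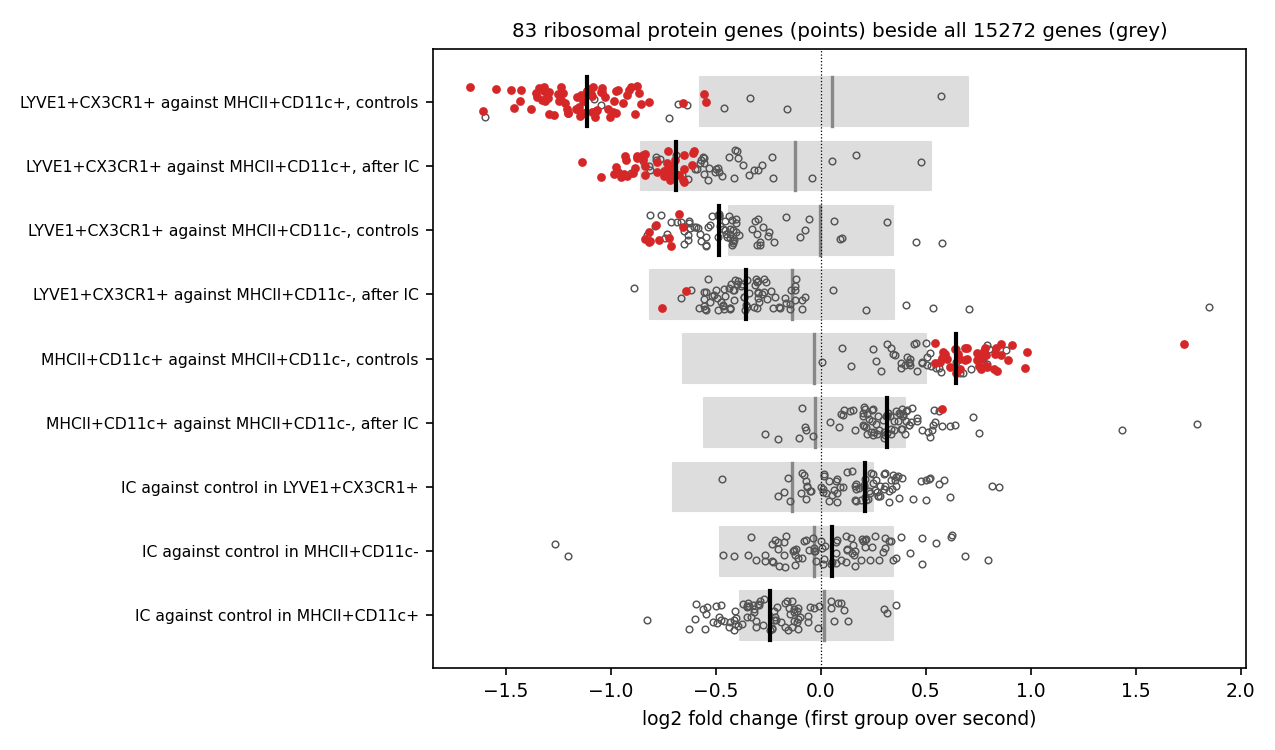
Log2 fold changes (x axis, first group over second) of the 83 tested ribosomal protein genes in 9 comparisons, filled red where the adjusted p was under 0.05 and open otherwise, with a black bar at their median. Grey boxes span the quartiles of all 15272 genes and grey bars mark their median. In the comparison of LYVE1+CX3CR1+ with MHCII+CD11c+ controls 73 points are filled around a median of −1.12, while in the IC comparisons of single subsets no point is filled.

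MHCII+CD11c+ macrophages were also above MHCII+CD11c- macrophages. In controls 39 of 83 members were higher and none lower, beside 3.67% of all genes called higher. The median was 0.65 for the members and −0.03 for all genes, and all 83 estimates were above 0. The counts were 16 of 34 small subunit genes and 23 of 49 large subunit genes. Rps6 led again (0.83 ± 0.15, edgeR adjusted p = 0.000923), followed by Rplp0, Rpl6, Rpl19 and Rpl4. Rplp0 was 581, 759 and 532 CPM in MHCII+CD11c- controls, all under the 1002 CPM of the lowest MHCII+CD11c+ control (0.98 ± 0.19, edgeR adjusted p = 0.00166).

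Rpl6, Rpl19 and Rpl4 encode structural proteins of the large subunit. Rpl6 was 293, 315 and 286 CPM in MHCII+CD11c- controls and 476, 481 and 538 CPM in MHCII+CD11c+ controls (0.74 ± 0.15, edgeR adjusted p = 0.00218). Rpl19 was 425, 521 and 418 CPM against 752, 760.5 and 849 CPM (0.79 ± 0.17). Rpl4 was 444, 493 and 398 CPM against 801, 682 and 666 CPM (0.69 ± 0.15). All 3 genes were higher in every MHCII+CD11c+ library. The count of 39 fell to 12, 15 and 15 when MHCII+CD11c- control replicate 1, MHCII+CD11c- control replicate 3 or MHCII+CD11c+ control replicate 3 was left out. With surrogate variables in the model it was 5, and of the 5 genes named here only Rps6 then passed.

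The gap between LYVE1+CX3CR1+ and MHCII+CD11c- controls was smaller. Here 10 of 83 members were lower and none higher, beside 1.22% of all genes called lower. Among them were Rpl27a, Rpl37a, Rps12, Rps16, Rps18 and Rps6. At an unadjusted p under 0.05, 57 members were lower, beside 6.27% of all genes. The median was −0.48 for the members and −0.00 for all genes. Rps6 (−0.72 ± 0.15, edgeR adjusted p = 0.0131), Rps16 (−0.81), Rps18 (−0.82) and Rps4x (−0.66) were among those with the smallest p.

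The count of 10 rested on single libraries. It was 6, 2 and 1 without LYVE1+CX3CR1+ control replicate 1, 2 and 3, and 6 and 5 without MHCII+CD11c- control replicate 2 and 3. It was 17 without LYVE1+CX3CR1+ IC replicate 3, which is in neither group but enters the common estimate of spread. Rps6 itself lost the call without LYVE1+CX3CR1+ control replicate 1 or 3, with an adjusted p of at most 0.0796. Rps16, Rps18 and Rps4x each lost it without some of the 5 control libraries just named, with an adjusted p of at most 0.16.

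The order of the subsets was tested again in the libraries after IC, which share no library with the controls but do share the estimate of spread. This comparison was added after the data had been seen. LYVE1+CX3CR1+ was below MHCII+CD11c+ in 41 of 83 members and above in none, beside 8.42% of all genes called lower (medians −0.69 and −0.12). The libraries did not overlap in 69 members, and in 27.8% of all genes. Rps6 was 272, 313 and 245 CPM against 603 and 614 CPM (−1.14 ± 0.17, edgeR adjusted p = 6.35e-05), and Rpl4, Rpl19, Rpl6 and Rpl13 came next. Rpl4 was 353, 406 and 374 CPM against 701 and 785 CPM (−0.98 ± 0.16). The count of 41 was 15 and 10 without MHCII+CD11c+ IC replicate 1 and 2, and 23 without LYVE1+CX3CR1+ IC replicate 3.

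Between the other subsets few members passed after IC. LYVE1+CX3CR1+ was below MHCII+CD11c- in 2 of 83 members, Rps6 (−0.76 ± 0.15, edgeR adjusted p = 0.00385) and Rpl10a (−0.64 ± 0.18, edgeR adjusted p = 0.0344), beside 4.79% of all genes. That share of members was under the background. The call of Rpl10a was lost in 15 of 29 alternatives, among them leaving out any LYVE1+CX3CR1+ IC or MHCII+CD11c+ IC library, MHCII+CD11c- IC replicate 2 or 3, or LYVE1+CX3CR1+ control replicate 1 or 3 (adjusted p of at most 0.162). MHCII+CD11c+ was above MHCII+CD11c- in 1 member, Rpl4 (0.58 ± 0.16, edgeR adjusted p = 0.0452), beside 2.29% of all genes, and this call was lost in 14 of 29 alternatives. These include the replicate block (adjusted p = 0.0732), leaving out any library of either group or LYVE1+CX3CR1+ control replicate 1 or 2, and without MHCII+CD11c+ IC replicate 2 the adjusted p was 0.629. The medians were −0.36 and 0.32.

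**Figure D3:**
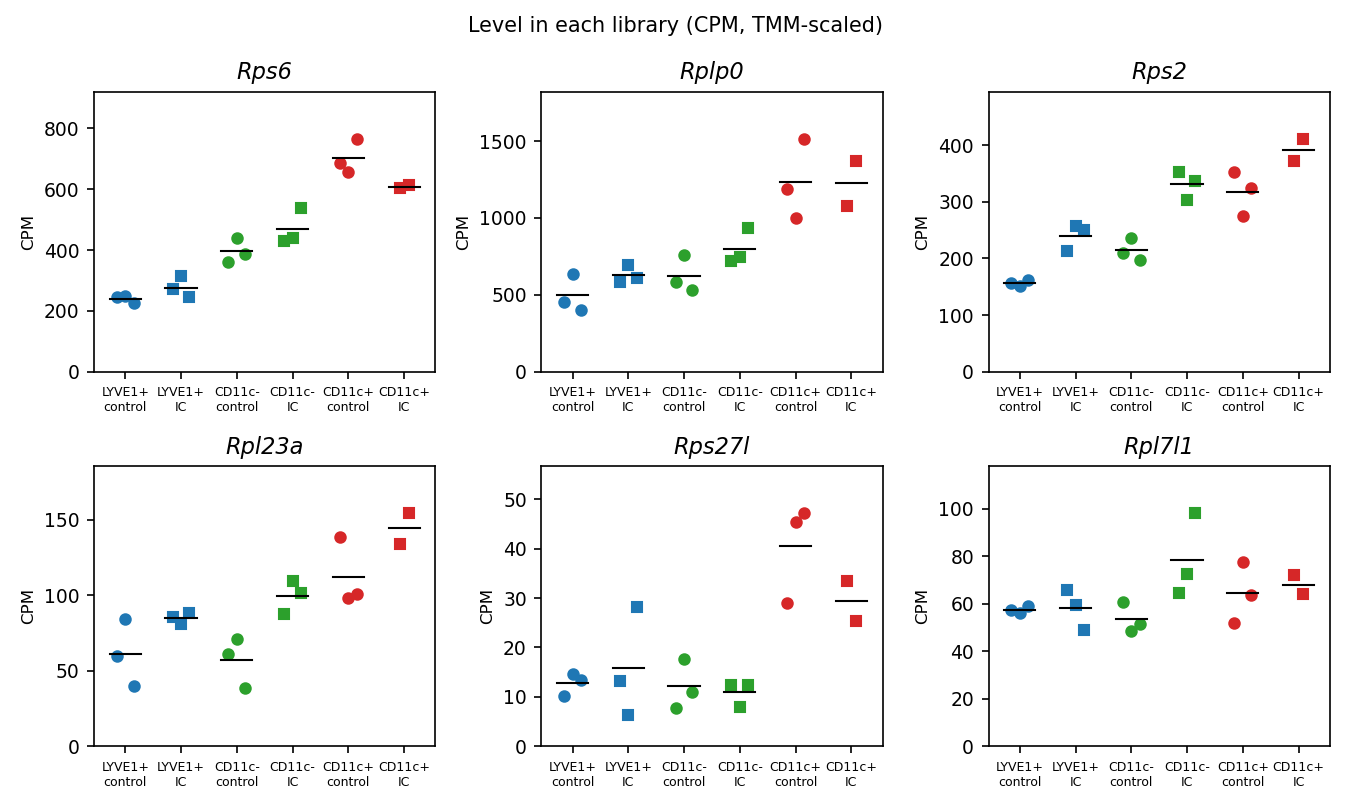
Level of 6 ribosomal protein genes (y axes, CPM after TMM scaling, each from 0) in every library, with circles for controls, squares for IC and lines for group means. Rps6 is higher from subset to subset without overlap (226 to 248, 362 to 439 and 656 to 767 CPM in controls), Rps2 is higher after IC in each subset, and Rpl7l1 lies between 48.6 and 98.2 CPM in all groups.

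Ribosomal protein transcripts are short, and among other genes a lower level in LYVE1+CX3CR1+ controls was seen mainly for the shortest transcripts. Among genes outside the list, the median log2 fold change of LYVE1+CX3CR1+ against MHCII+CD11c+ controls was −0.30 for transcripts under 500 bases and 0.17 over 4000 bases. At 500 to 1000 bases, the range of most members, the median of these other genes was −0.04. The medians of the members were −1.11 under 500 bases (14 genes), −1.13 at 500 to 1000 bases (55 genes) and −1.13 at 1000 to 2000 bases (12 genes). Genes outside the list with transcripts under 1000 bases and over 256 CPM (103 genes) had a median of −0.10, against −1.10 for 36 members over that level.

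With a smooth length trend of each library entered as an offset, 71 members were called lower in LYVE1+CX3CR1+ against MHCII+CD11c+ controls, with a median of −1.02. For MHCII+CD11c+ against MHCII+CD11c- controls the offset left 29 calls (median 0.54), and for LYVE1+CX3CR1+ against MHCII+CD11c- controls 11 (median −0.47). Counts on short transcripts outside the list made up 19.2% to 22.8% of a library. The part of transcript length in the difference between subsets was not tested beyond these values.

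**Figure D4:**
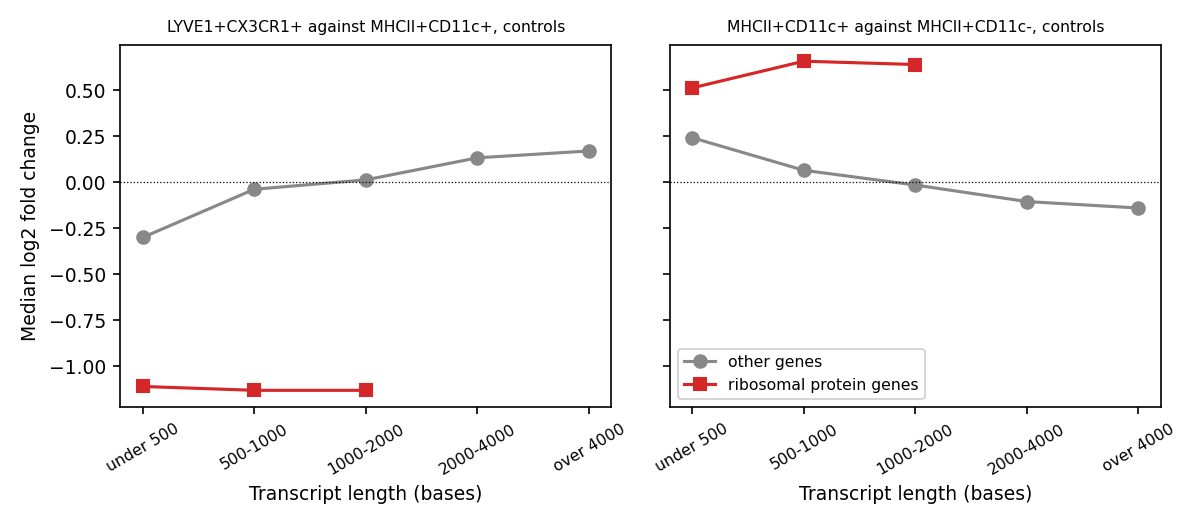
Median log2 fold change (y axis) in bins of transcript length (x axis, bases) for ribosomal protein genes (red squares, bins of at least 12 genes) and all other tested genes (grey circles) in 2 comparisons of control libraries. Other genes run from −0.30 to 0.17 on the left and from 0.24 to −0.14 on the right, while ribosomal protein genes stay near −1.1 and between 0.51 and 0.66.

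Of 4 neutrophil markers, S100a8, S100a9 and Ly6g had more counts in MHCII+CD11c+ controls than in LYVE1+CX3CR1+ controls, and Csf3r had fewer. The 4 markers summed to 61.4 to 231 CPM in MHCII+CD11c+ controls, 41.2 to 195 CPM in MHCII+CD11c- controls and 29.4 to 38.9 CPM in LYVE1+CX3CR1+ controls. S100a9 held 200 to 670 counts in MHCII+CD11c+ controls and 0 to 35 in LYVE1+CX3CR1+ controls. Csf3r held 33 to 107 and 108 to 235 counts there and made up most of the LYVE1+CX3CR1+ sum. Ly6g, the defining marker, was at 0 counts in all LYVE1+CX3CR1+ libraries and at 17, 1 and 20 counts in the MHCII+CD11c+ controls. After IC the sums were 24.1 and 28.1 CPM in MHCII+CD11c+ and 7.44 to 34.3 CPM in LYVE1+CX3CR1+ libraries, with Ly6g at 0 in both. In that comparison 41 members were lower, beside 8.42% of all genes, and in controls 73 were, beside 7.40%. The 5 macrophage markers summed to 2473 to 3484 CPM in MHCII+CD11c+ libraries and at least 5043 CPM in the others. The part of these markers in the result was not tested.

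In the same comparison of control libraries, smaller shares of other genes of protein synthesis passed the test. Of 34 translation factors 16 were lower (median −0.55). This list is mostly elongation and initiation factors but also holds Tpt1, Pabpc1, Naca and Btf3. Eif5a, a factor that keeps peptide bond formation going at difficult sequences, differed by −1.16, and Eef1g and Eef1b2, which recharge the main elongation factor, by −1.06 and −1.02. Of 28 ribosome biogenesis genes 6 were lower (median −0.37): Fbl, Ltv1, Nop58, Npm1, Polr1a and Tsr1. Of 78 mitochondrial ribosomal protein genes 4 were lower (Mrpl52, Mrpl54, Mrpl57 and Mrps6), a share under the 7.40% of all genes, with a median of −0.23. Of the ribosomal proteins whose names the rule misses, 3 were lower: Rpsa, a small subunit protein, differed by −1.83 (edgeR adjusted p = 7.1e-08), Rack1, a signalling scaffold on the small subunit, by −1.26 and Fau by −0.93.

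Of 12 tested regulators of ribosomal protein genes and their messages, 2 passed in this comparison, 1 lower and 1 higher. Among all 15272 genes 1130 were lower and 1196 higher, a share near that of the regulators. Larp1, which encodes the protein that binds TOP tracts, was lower (−0.80 ± 0.18, edgeR adjusted p = 0.00241), and Max, the partner of Myc, was higher (1.22 ± 0.31, edgeR adjusted p = 0.00762). For MHCII+CD11c+ against MHCII+CD11c- controls, 8 of 34 translation factors, 4 of 28 biogenesis genes and 3 of 78 mitochondrial ribosomal protein genes were higher, the last a share near the 3.67% of all genes. For LYVE1+CX3CR1+ against MHCII+CD11c- controls none of these 3 lists held a call, with medians between −0.07 and 0.09, while the median of the members was −0.48.

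At 8 h after IC, no member passed the test in any single subset, beside 0.963% of all genes called in either direction in the LYVE1+CX3CR1+ subset, 0.701% in the MHCII+CD11c- subset and 0.216% in the MHCII+CD11c+ subset. The medians were 0.21, 0.05 and −0.24, beside −0.14, −0.03 and 0.02 for all genes. At an unadjusted p under 0.05, 9 members had higher estimates in LYVE1+CX3CR1+ (2.81% of all genes), 7 in MHCII+CD11c- (5.19%), while 11 had lower ones in MHCII+CD11c+ macrophages (1.50%).

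The 11 in MHCII+CD11c+ macrophages were Rps21, Rps12, Rpl35a, Rps25, Rpl41, Rps24, Rpl30, Rpl37a, Rps16, Rps28 and Rpl27a. Their values did not pass the adjusted test, and neutrophil markers differed in the same comparison: S100a9 held 200 to 670 counts in the controls and 0 to 2 after IC, while Csf3r held 33 to 107 and then 159 to 163. Their part in these values was not tested. The 9 in LYVE1+CX3CR1+ macrophages were Rpl3, Rpl13, Rplp2, Rpl14, Rpl8, Rpl18, Rps7, Rpl37a and Rps2.

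Over the 3 subsets together, 2 members were higher after IC and none was lower, beside 1.70% of all genes called higher. Rps2, a small subunit protein near the messenger RNA entry, was 157, 151 and 163 CPM in LYVE1+CX3CR1+ controls and 214, 257 and 251 CPM after IC. In MHCII+CD11c- it was 209, 236 and 198 CPM and then 353, 302 and 337 CPM. In MHCII+CD11c+ it was 353, 274 and 325 CPM and then 371 and 412 CPM. In each subset every IC library was above every control library. The mean log2 fold change of Rps2 was 0.51 ± 0.09 (edgeR adjusted p = 0.0023), and the call held in all 28 alternatives, with an adjusted p of at most 0.0216. In single subsets the estimates were 0.61, 0.63 and 0.30, with adjusted p of 0.0583, 0.0649 and 1.

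Rps2 lies on mm10 at chr17:24718116-24721929 on the plus strand, and 1 snoRNA gene, Snora64, lies inside it. On the opposite strand Snhg9 covers 1.07% of its coding transcripts' exons. The start of Rps2, shown for comparison with the tract of Rps6, has no run by the rule used above:
Rps2, chr17:24720048-24720077, plus strand: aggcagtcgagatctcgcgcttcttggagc

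Rpl23a, a protein at the exit of the peptide tunnel, was the other member. It was 59.7, 84.1 and 39.9 CPM in LYVE1+CX3CR1+ controls and 85.7, 80.9 and 88.4 CPM after IC. In MHCII+CD11c- it was 61, 71 and 38.8 CPM and then 87.6, 109 and 102 CPM, and in MHCII+CD11c+ 138, 97.9 and 101 CPM and then 134 and 154 CPM. Control and IC libraries overlapped in the LYVE1+CX3CR1+ and MHCII+CD11c+ subsets. The mean log2 fold change was 0.55 ± 0.15 (edgeR adjusted p = 0.0396).

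This call was lost in 14 of 28 alternatives, and with pseudogene counts added to each member the adjusted p was 0.198. It was lost without LYVE1+CX3CR1+ control replicate 1 or 3 or IC replicate 1, MHCII+CD11c- control replicate 1 or 3 or IC replicate 2 or 3, or MHCII+CD11c+ control replicate 2 or 3 or IC replicate 1 or 2. The counts on pseudogenes of Rpl23a (7006) were nearly as many as those on the gene (7036). Its exons also lie 55.4% opposite Tlcd1, which held 0 to 37 counts per library. The farthest member from the median in this comparison was Rpl13a, at 2.07 to 9.44 CPM after IC in LYVE1+CX3CR1+ and MHCII+CD11c- libraries.

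The responses of the subsets to IC did not differ in any member past the adjusted threshold. For LYVE1+CX3CR1+ against MHCII+CD11c+ the interaction called 0 members and 0.0327% of all genes. At an unadjusted p under 0.05, 20 members and 1.15% of all genes had a higher response in LYVE1+CX3CR1+. The median was 0.43 for members and −0.21 for all genes, and 76 of 83 estimates were above 0. Rpl37a, a zinc-binding protein of the large subunit, had an estimate of 1.06 (edgeR adjusted p = 0.236). With DESeq2 1 member passed. With RLE size factors the medians were 0.60 and −0.04. For LYVE1+CX3CR1+ against MHCII+CD11c- the interaction called 0.0262% of all genes and no member, with 4 members and 1.41% of genes higher at an unadjusted p under 0.05. For MHCII+CD11c+ against MHCII+CD11c- it called 0% of genes, and 1 member, Rpl11, and 1.19% of genes were lower at an unadjusted p under 0.05.

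In MHCII+CD11c- macrophages a few genes that build ribosomes or drive translation passed the test of IC. Among all 15272 genes 83 were called higher there. Polr1a, the largest subunit of RNA polymerase I, which transcribes ribosomal RNA, was higher (1.41, edgeR adjusted p = 0.0316). Of the 28 biogenesis genes it was the 1 that passed, while 26 estimates were above 0 and the median was 0.66. Among 34 translation factors Eif3b (0.96, edgeR adjusted p = 0.0103) and Eif5a (0.74, edgeR adjusted p = 0.0403) were higher. The median of the members in the same comparison was 0.05. Over the 3 subsets together 3 of 28 biogenesis genes were higher (Nolc1, Pes1 and Polr1a), beside 1.70% of all genes. The same held for 4 of 34 translation factors (Eef1g, Eif3b, Eif4g1 and Eif5a). Of 12 regulators 1 was lower by the test, beside 252 of all 15272 genes. It was Eif4ebp2, a relative of the translation repressor that mTOR controls (−0.64).

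Several ribosomal proteins have a second gene for a like protein. Of 7 such pairs chosen by name, 3 had both genes above the filter on low counts: Rpl7 and Rpl7l1, Rpl22 and Rpl22l1, and Rps27 and Rps27l. The main genes of all 7 pairs, Rpl3, Rpl7, Rpl10, Rpl22, Rpl36a, Rpl39 and Rps27, were lower in LYVE1+CX3CR1+ controls when set against MHCII+CD11c+ controls. The ratio within a pair does not depend on library scaling. It was tested by an exact permutation of libraries within strata, two-sided, in 12 tests of 3 pairs, with p-values adjusted over the 12.

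Rpl7l1, whose product takes part in making the large subunit, ranged from 48.6 to 98.2 CPM over all libraries, and Rpl7 from 290.0 to 733 CPM. The log2 ratio of Rpl7l1 to Rpl7 was −2.59 ± 0.19 (SD, n = 3) in LYVE1+CX3CR1+ controls, −3.25 ± 0.31 in MHCII+CD11c- controls and −3.42 ± 0.22 in MHCII+CD11c+ controls. Over both treatments LYVE1+CX3CR1+ macrophages exceeded MHCII+CD11c+ macrophages by 0.65 (exact permutation p = 0.005, the smallest that 200 arrangements can give, adjusted p = 0.03). IC against control gave a difference of 0.34 (exact permutation adjusted p = 0.066).

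Rps27l, a target of p53, was the member farthest above the median in MHCII+CD11c+ against MHCII+CD11c- controls. It was 28.9, 45.3 and 47.3 CPM in MHCII+CD11c+ controls and 7.68, 17.7 and 11 CPM in MHCII+CD11c- controls, without overlap (log2 fold change 1.73 ± 0.46, edgeR adjusted p = 0.0166). This call was lost without MHCII+CD11c- control replicate 1 or 3 or MHCII+CD11c+ control replicate 3, with an adjusted p of at most 0.0938. In LYVE1+CX3CR1+ controls it was 10.2, 14.6 and 13.4 CPM. Rps27 in MHCII+CD11c- controls was 67.4, 96.7 and 98 CPM and in MHCII+CD11c+ controls 113, 120.2 and 112 CPM. The ratio of Rps27l to Rps27 was 1.27 higher (log2) in MHCII+CD11c+ than in MHCII+CD11c- macrophages over both treatments (exact permutation p = 0.005, adjusted p = 0.03). Against LYVE1+CX3CR1+ the difference was not past the threshold (−0.56, exact permutation adjusted p = 0.289), and the LYVE1+CX3CR1+ libraries spread widely (−1.93 ± 0.87 in controls).

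Rpl22l1, a copy of Rpl22 that binds RNA, was low, at 8.02 to 28.6 CPM, against 159 to 477 CPM for Rpl22. None of its 4 tests passed, and the adjusted p was lowest, 0.18, for LYVE1+CX3CR1+ against MHCII+CD11c+ (0.68, exact permutation). Leaving out almost any library took the calls of both other pairs above the threshold. Fewer arrangements remain when the library belongs to the comparison. When it does not, the adjusted p can still rise, since it also depends on the p of the other pair. The differences then stayed between 0.59 and 0.70 for Rpl7l1 to Rpl7 and between 1.14 and 1.38 for Rps27l to Rps27.

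**Figure D5:**
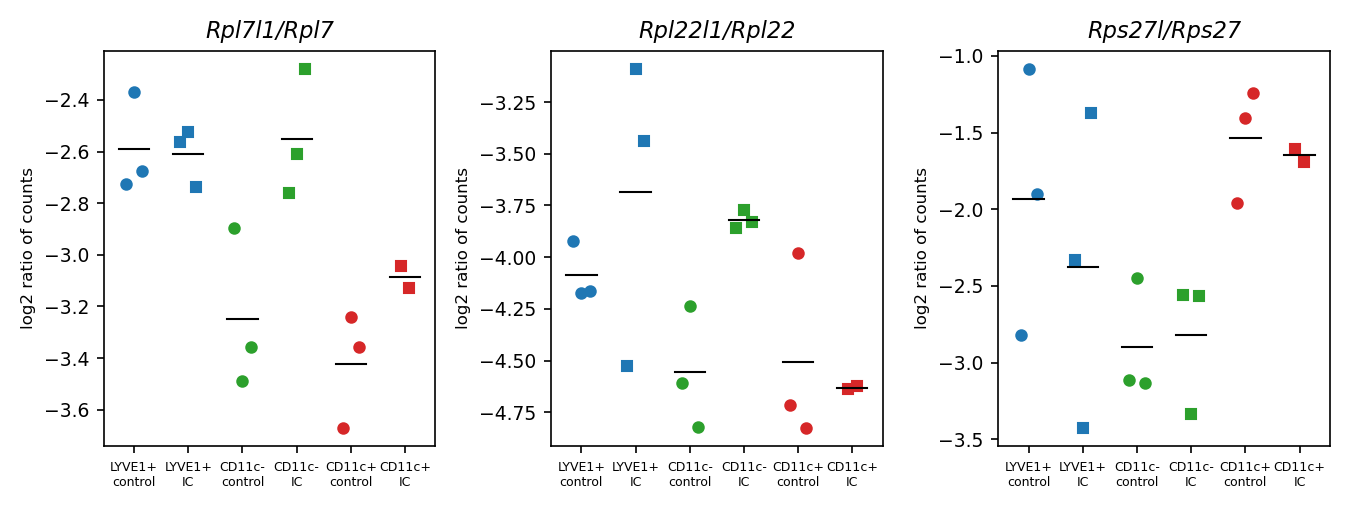
Log2 ratio of counts (y axes, with a different range in each panel) of the second gene to the main gene of 3 pairs in every library, with circles for controls, squares for IC and lines for group means. Rpl7l1 to Rpl7 is highest in LYVE1+CX3CR1+ libraries (means −2.59 and −2.61) and in MHCII+CD11c- libraries after IC (mean −2.55), and Rps27l to Rps27 has means of −1.54 and −1.65 in the MHCII+CD11c+ groups.

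Many members share sequence with other genes, which bears on their levels. By windows of 100 bases, 83.6% of Rps6, 82.7% of Rpl5 and 78.9% of Rpl13 were also found elsewhere among annotated transcripts, against 14.6% of Rplp0, 1.36% of Rpl7l1 and 0% of Rps27l. Its part in the differences between subsets was not tested across members. With pseudogene counts added to each member, the counts of members called between control subsets stayed within 1.5 times those given above.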

How the data were processed

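Each library used 5 ng of RNA and the SMARTer stranded kit, which reads total RNA. The authors trimmed reads with Trim Galore, aligned them to mm10 with HISAT2 and counted them with featureCounts. Versions, strand use and treatment of multiply aligned reads were not given in the sources used here. The deposited values are raw counts per gene symbol, without normalization. The joint table equalled the 17 library tables, and 1 column with no sample label and 0 counts was not used.

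Genes were kept by filterByExpr (minimum count 10) and tested with edgeR 4.0.16 in R 4.3.3: TMM scaling, robust quasi-likelihood, 6 group means, Benjamini-Hochberg adjustment over all 15272 genes. CPM are TMM-scaled. Scripts were tested on simulated data. Transcript lengths and positions came from GENCODE M21 on GRCm38 (mm10), with all 87 members matched, and starts from RefSeq.

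The members, lists and tests were chosen with earlier results of these data known. Genes named were the 5 members with the smallest p among those called in each direction, members of the paralog pairs, 12 members with textbook roles, the extremes of level per kilobase and the member farthest from the median change. Others were named after their values were seen, and some genes are not reported here. Alternatives were RLE scaling, scaling without members, DESeq2 1.42.0, voom (limma 3.58.1), no filter, equal depth, a length offset, pseudogene counts added, an adjusted p under 0.01, fewer groups, 5 surrogate variables (sva 3.50.0), a replicate block and leaving out each library. The 3 comparisons of subsets after IC were added after the data were seen. Floors cover counting error only, while values after ± are the SE of the edgeR fit or the SD between libraries.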

Additional observations from a re-analysis of the deposited data

How the results depend on the processing

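The count of members lower in LYVE1+CX3CR1+ against MHCII+CD11c+ controls stayed between 66 and 77 under every alternative run. Other counts moved by over 1.5 times. For LYVE1+CX3CR1+ against MHCII+CD11c- controls the 10 became 17 with RLE, 33 with voom, 28 with DESeq2, 4 with surrogate variables and 0 at an adjusted p under 0.01. For MHCII+CD11c+ against MHCII+CD11c- controls the 39 became 22 with fewer groups, 12 at an adjusted p under 0.01 and 5 with surrogate variables, where the median was 0.508. After IC, LYVE1+CX3CR1+ against MHCII+CD11c+ had 41, and 25 with RLE, 21 with fewer groups and 18 at an adjusted p under 0.01. LYVE1+CX3CR1+ against MHCII+CD11c- after IC had 2, and 9 with surrogate variables or 1 with RLE, no filter, equal depth, fewer groups, voom or an adjusted p under 0.01. MHCII+CD11c+ against MHCII+CD11c- after IC had 1, and 0 with RLE, no filter, equal depth or an adjusted p under 0.01, 2 with fewer groups or DESeq2, 3 with surrogate variables and 16 with voom. IC called 1 member in LYVE1+CX3CR1+ with RLE or surrogate variables and 3 with DESeq2, 1 in MHCII+CD11c- with voom or DESeq2, and over the subsets 1 with pseudogene counts added, surrogate variables or an adjusted p under 0.01. For the interaction of LYVE1+CX3CR1+ against MHCII+CD11c+, DESeq2 called 1 and the median was 0.605 with RLE and with DESeq2. The cause was not tested.

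Leaving out each library gave 0 to 1 calls for IC in LYVE1+CX3CR1+ and in MHCII+CD11c-, 1 to 3 for IC over the subsets, 1 to 17 for LYVE1+CX3CR1+ and 12 to 48 for MHCII+CD11c+ against MHCII+CD11c- controls, and 10 to 46, 1 to 6 and 0 to 2 for the comparisons after IC. Median log2 changes went from −0.022 to 0.195 for IC in MHCII+CD11c-, from −1.258 to −1.067 for LYVE1+CX3CR1+ against MHCII+CD11c+ controls and from −0.42 to −0.212 for LYVE1+CX3CR1+ against MHCII+CD11c- after IC. Log2 ratios of Rpl7l1 to Rpl7 went from 0.294 to 0.398 for IC and from 0.592 to 0.699 for LYVE1+CX3CR1+ against MHCII+CD11c+. That of Rpl22l1 to Rpl22 went from 0.154 to 0.514 for LYVE1+CX3CR1+ against MHCII+CD11c-, and that of Rps27l to Rps27 from 1.137 to 1.379 for MHCII+CD11c+ against MHCII+CD11c-. Rps27l to Rps27 under IC went from −0.326 to 0.016, the latter without LYVE1+CX3CR1+ IC replicate 2. Named genes called in the main fit kept their sign in all 1709 values, each for a single gene, comparison and alternative. Of these values 166 lost the call.

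The labels do not say that a replicate number marks an animal. Within a treatment the correlations of same-numbered libraries were positive in 16 of 16 cases (0.001 to 0.286), against −0.15 to 0.067 for other numbers, but in no pair of groups with 3 pairs did each pass 0.1, so the numbers were not taken to pair the libraries. In the MHCII+ controls every library correlated best with its own number, a hint from the data only. A replicate block gave 73, 44 and 14 calls in the 3 control comparisons and changed no count by over 1.5 times, but after IC it ended the calls of Rpl4 (MHCII+CD11c+ against MHCII+CD11c-, adjusted p = 0.0732) and Rps14 (LYVE1+CX3CR1+ against MHCII+CD11c+, adjusted p = 0.0845). With the block the paralog ratios called became 0.686 and 1.329, both with an adjusted p of 0.188. The matched pairs were too few for any adjusted p under 0.05, so this setting cannot decide whether the calls hold.

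Low counts limit the 4 untested members, and the 2 MHCII+CD11c+ libraries after IC limit the tests of IC there.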
